A study of Mus musculus with 17 samples.

Results

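The subunits of RNA polymerases I, II and III are described here through the RNA polymerase II (Pol II) found on their own genes. The members were the rows of a per-gene table whose name begins with Polr1, Polr2 or Polr3 and a subunit letter, together with Znrd1, Twistnb and Crcp, and they came to 31 of 36172 genes. By known role 5 belong to Pol I alone, 7 to Pol II alone and 11 to Pol III alone, 7 are shared between polymerases, and Polr2m encodes a Pol II-associated protein. The study depleted RPAP1, a protein that associates with Pol II, in primary embryonic fibroblasts of C57Bl/6 mice and asked how much Pol II was left on genes. The control cells (SCR) carried a lentiviral non-targeting hairpin and the depleted cells (shRPAP1) carried a lentiviral hairpin against Rpap1. All cells were selected with puromycin and taken at day 3 after infection. Chromatin of 3 fibroblast lines was pooled for each immunoprecipitation, so each antibody gave 1 library per condition. An antibody to RPB1, the product of Polr2a, measured total Pol II. A second antibody measured Ser5P, the form of RPB1 whose C-terminal repeats carry phosphate on serine 5 and which is found early in transcription. With 1 library per condition no test between conditions is possible, and lower and higher refer to these libraries. For both shRPAP1 samples a description among the labels says control, against their titles, treatments and hairpins, from which the groups were taken.

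RNA polymerase I makes the precursor of the large ribosomal RNAs, RNA polymerase II makes messenger RNA, and RNA polymerase III makes transfer RNA and other short RNAs. Each enzyme is built around a pair of large catalytic subunits, with smaller subunits that are either its own or shared with the other polymerases. All of these subunits are encoded by messenger RNAs, so the genes of every one of them are transcribed by Pol II.

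The values are coverage signal at the promoter and mean coverage over the gene body. At promoters 1 read was worth about 28.85 units of signal, and 0.72 was read as no coverage. The libraries held between 71277 and 290756 promoter read equivalents, and each shRPAP1 library held fewer than the SCR library of its antibody. Background was read from 1573 olfactory and vomeronasal receptor genes, whose mean signal was 1.49- to 1.81-fold higher in shRPAP1. Over 30 other silent genes the mean signal was 0.599 and 1.46 times that of SCR at the promoters and bodies of total Pol II, and 1.74 and 0.778 times with Ser5P. A gene counted as measured when it lay above the 95th percentile of these receptors in at least 1 of the antibody's 2 libraries. The median log2 ratio of shRPAP1 over SCR over all measured genes was −1.07 at promoters and −0.55 over bodies for total Pol II. For Ser5P it was −0.97 and −0.68. Of 12 fibroblast marker genes, 12 lay above background in SCR in every measure except total Pol II bodies, where 11 did. Of 13 markers of other cell types, 1 promoter lay above background with total Pol II and 2 with Ser5P, and 0 bodies did with either antibody. The Rpap1 promoter went from 211 to 325 between SCR and shRPAP1 with total Pol II and from 886 to 541 with Ser5P. These values do not check the depletion, since the hairpin targets the transcript.

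Promoter sequence is shown for the genes of 5 large catalytic subunits and for Polr3g, which had no coverage in a library, and Znrd1, with the lowest body ratio of total Pol II. The stretches are from RefSeq on GRCm38.p6, from 100 bases before the start to 20 bases after it, read 5′ to 3′ on the gene's strand. Capitals mark motifs found by letter match on either strand.
Polr1a, chr6:71908953-71909072, plus strand, a CCAAT box: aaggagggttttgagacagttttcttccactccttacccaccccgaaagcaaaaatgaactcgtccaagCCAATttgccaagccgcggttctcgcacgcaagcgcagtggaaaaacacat
Polr1b, chr2:129100896-129101015, plus strand, an SP1 motif: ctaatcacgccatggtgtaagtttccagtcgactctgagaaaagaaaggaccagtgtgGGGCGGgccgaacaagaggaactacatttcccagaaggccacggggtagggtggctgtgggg
Polr2a, chr11:69758614-69758733, minus strand, SP1 motifs and a TATA motif: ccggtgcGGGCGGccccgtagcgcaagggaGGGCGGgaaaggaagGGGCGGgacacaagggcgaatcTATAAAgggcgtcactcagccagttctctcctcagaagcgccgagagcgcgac
Polr2b, chr5:77310384-77310503, plus strand, an NRF1 and an SP1 motif: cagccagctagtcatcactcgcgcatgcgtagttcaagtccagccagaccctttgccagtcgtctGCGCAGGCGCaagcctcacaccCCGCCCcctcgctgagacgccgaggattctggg
Polr3b, chr10:84622198-84622317, plus strand, an ETS motif: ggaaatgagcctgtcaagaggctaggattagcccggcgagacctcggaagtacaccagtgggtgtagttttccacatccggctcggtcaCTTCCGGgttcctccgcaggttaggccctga
Polr3g, chr13:81710994-81711113, minus strand, an ETS and an SP1 motif: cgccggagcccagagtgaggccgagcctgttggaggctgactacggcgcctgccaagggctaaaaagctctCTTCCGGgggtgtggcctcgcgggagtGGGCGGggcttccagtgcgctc
Znrd1, chr17:36958506-36958625, minus strand, a CCAAT box and a CRE: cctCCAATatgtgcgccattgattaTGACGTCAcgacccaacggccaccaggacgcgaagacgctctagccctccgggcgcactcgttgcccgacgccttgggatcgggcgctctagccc

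The RefSeq table held 24 of the 31 promoters, each as 300 bases from 250 before the start to 50 after it, and all shares were taken over these windows. The ETS motif (CCGGAAG) was present in 7 of 24 members, or 29.2%, against 9.12% of 27025 promoters. The NRF1 motif was present in 4 members, or 16.7%, against 4.78%, and the SP1 motif (GGGCGG) in 14, or 58.3%, against 35.9%. The TATA motif (TATAAA) was found in 2 members, Polr2a and Polr2c, a share of 8.33% against 14.2%. The CCAAT box (CCAAT) was found in 7 members, or 29.2%, against 37.9%. The CRE (TGACGTCA) was found in Znrd1 alone, and the E-box (CACGTG) in 4 members, or 16.7%, against 7.24%. The YY1 motif was found in 0 of 24, against 0.899% of all promoters. The median GC content of the members' promoters was 60.0%, with a range of 46.0% to 71.0%, against a median of 52.7% over all promoters. The median observed over expected ratio of CpG was 0.865, with a range of 0.312 to 1.17, against 0.389. Polr3b, Polr1a, Polr2m and Polr2c lay below the GC median of all promoters, and Polr1d lay below that of CpG. No account of base composition was taken in the motif shares.

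In SCR, Pol II was present on all of these genes at the promoter and was densest on Polr2a, the gene of the largest Pol II subunit. The Polr2a promoter held a signal of 3068 with total Pol II, 3.63 times that of Polr2b, which was next. With Ser5P it held 4668, 2.59 times the next member, Polr3d, which encodes a Pol III subunit of the initiation heterodimer. Below these the levels ran down in small steps. With total Pol II, apart from the step to the lowest member, no member from Polr2b down stood more than 1.37-fold above its neighbour. These members held fewer than 30 read equivalents each in SCR, and most neighbours in this order cannot be told apart. The lowest promoter was that of Polr1d with total Pol II, at 58.4, and that of Polr3g with Ser5P, at 185. Over gene bodies, where coverage is a mean per base, Polr2l was highest with both antibodies, at 192 and 298, followed by Polr1c at 136 and 247.5. Polr3g was lowest over the body, at 17.8 with total Pol II and 16.8 with Ser5P, and Polr1b was next above it, at 20.3 and 24.7.

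**Figure D1:**
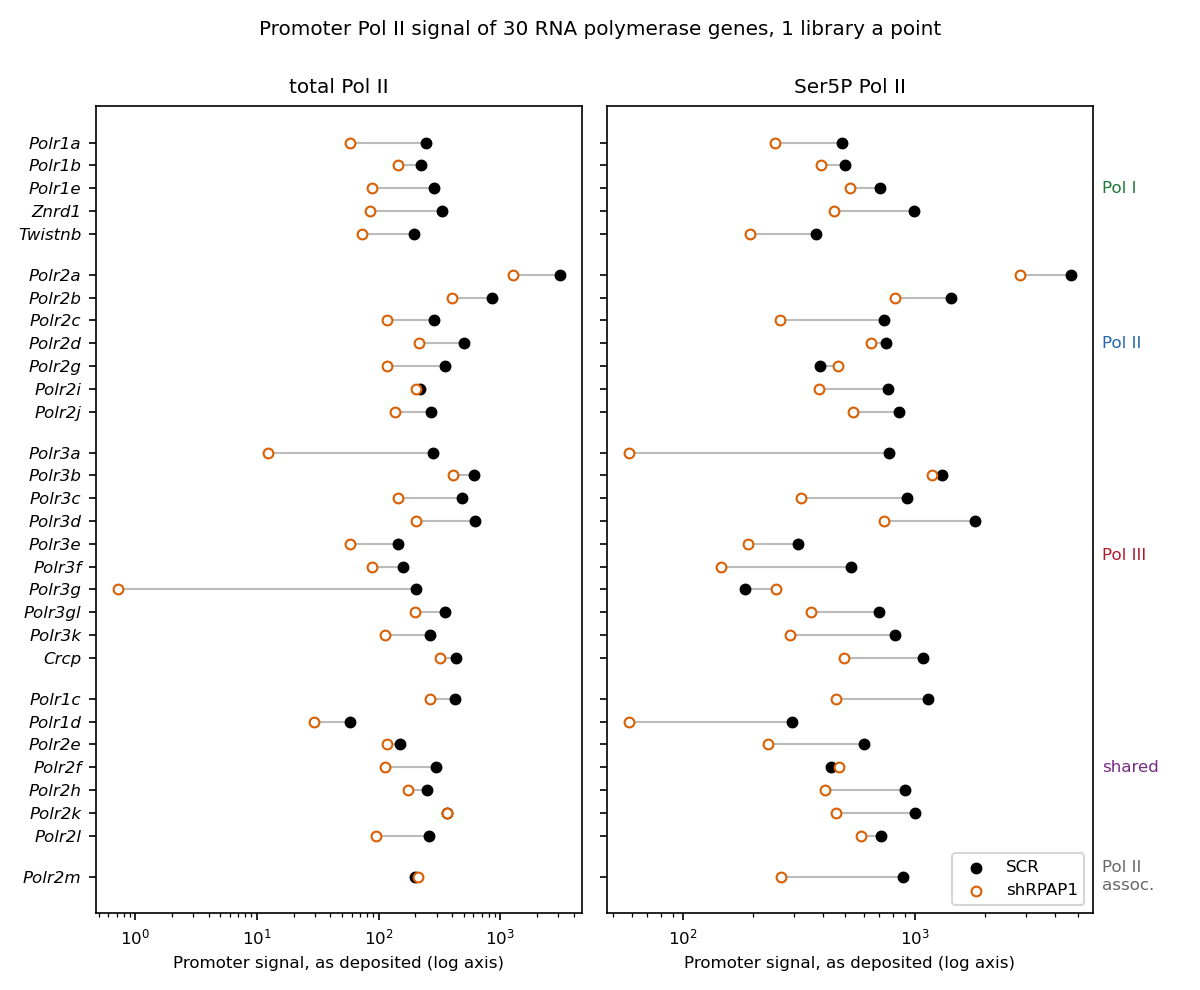
Promoter signal (coverage units, log axis) of 30 of the 31 subunit genes in the SCR and shRPAP1 libraries of total Pol II and of Ser5P, grouped by polymerase, with 1 point per library. Polr2a stands above all other members in all 4 libraries, and Polr3g is at the value read as no coverage, 0.72, in the shRPAP1 library of total Pol II.

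Promoter Pol II of most subunit genes was lower in the shRPAP1 libraries, by about as much as over all genes. With total Pol II, 23 of 31 promoters were at least 1.5-fold lower and 0 were higher, where 69.2% of all measured genes were lower and 7.38% were higher. The members' median log2 ratio was −1.22, with an order-statistic interval of −1.39 to −0.70, beside −1.07 over all genes. The median is also −1.22 when Polr3g, which had no coverage in shRPAP1, is placed at its bound. With Ser5P, 23 of 31 promoters were lower and 0 were higher, beside 68.5% and 11.7% of all genes. The median was −0.99, with an interval of −1.31 to −0.71, beside −0.97 over all genes. All 31 promoters were measured with both antibodies, and 26 of them lay above background in both total Pol II libraries and 31 in both Ser5P libraries. Of the 26, 18 were lower with total Pol II. The other 5, Polr1a, Polr3a, Polr3e, Polr3g and Polr1d, passed through the SCR library alone, and all are among the 23 lower. Relative to the median of all genes, the members' medians were −0.15 with total Pol II and −0.03 with Ser5P.

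Over gene bodies the median ratios of the values as deposited were smaller in size. With total Pol II, 27 of 31 bodies were measured, 14 were at least 1.5-fold lower and 0 were higher, where 46.8% of all genes were lower and 8.73% were higher. The bodies of Polr1b, Polr3b, Polr3g and Polr2f did not pass, and 15 others passed through the SCR library alone. Of the 12 that lay above background in both libraries, 4 were lower. The median of the 27 was −0.64, with an interval of −0.80 to −0.24, beside −0.55 over all genes. With Ser5P, 30 bodies were measured, all but Polr3g, with 24 lower and 0 higher, beside 56.3% and 8.54% of all genes. Here 13 passed through SCR alone, and of the 17 above background in both libraries 16 were lower. The median was −0.85, with an interval of −0.95 to −0.77, beside −0.68 over all genes. Set against the median of all genes, the members stood at −0.10 with total Pol II and −0.17 with Ser5P. With the mean receptor signal subtracted, the members' median with total Pol II was −1.32 at promoters and −0.97 over bodies. With Ser5P it was −1.02 and −1.11, so that there the bodies were no longer the smaller.

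**Figure D2:**
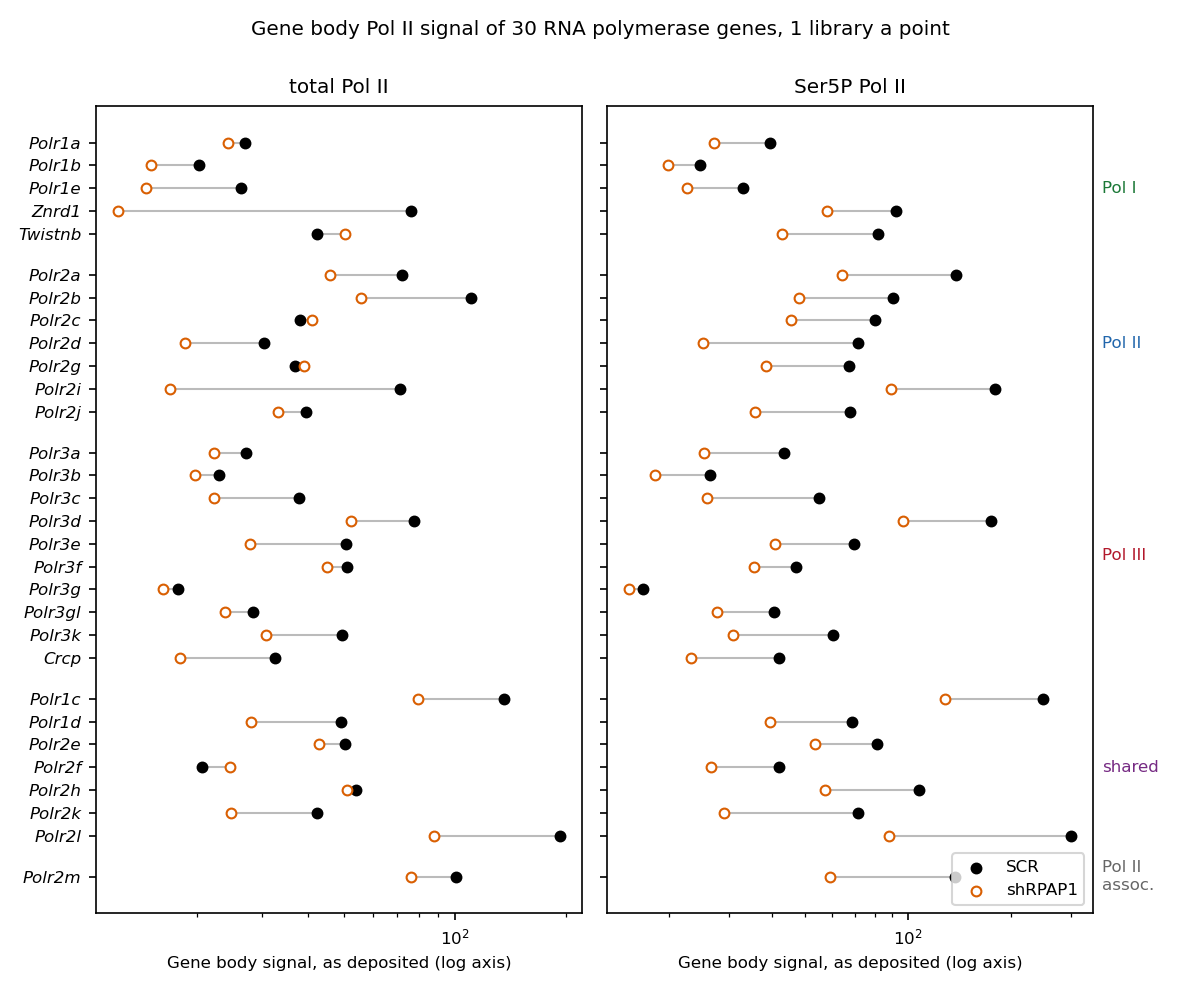
Gene body signal (mean coverage, log axis) of 30 of the 31 subunit genes in the SCR and shRPAP1 libraries of total Pol II and of Ser5P, grouped by polymerase, with 1 point per library. With Ser5P all 30 bodies drawn were lower in shRPAP1, with Polr2l highest in SCR at 298 and Polr3g lowest at 16.8.

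Counting error set a wide margin on single genes. The exact 95% Clopper-Pearson interval of the read ratio lay below 0 for 7 promoters and 10 bodies with total Pol II, and for 17 promoters and 21 bodies with Ser5P. No interval lay above 0 among the 124 values. Polr2a, Polr2b and Polr3c had intervals below 0 in all 4 measures, and Polr1b, Polr2f, Polr2g, Polr2i and Polr3gl in none. These intervals cover counting error only and no variation between libraries. They narrow with more reads, the medians of all genes also lay below 0, and no such share was taken over all genes. The counts of intervals therefore show nothing particular to the members. The fitted ratio was negative in all 4 measures for 24 of 31 members, a count for which no share of all genes was taken either. Both antibodies gave a promoter at least 1.5-fold lower in 16 members and a body in 13, and their signs differed in 5 promoters and 4 bodies. Of the members measured with both antibodies, 51.6% of promoters and 48.1% of bodies were lower with both, beside 53.3% and 38.9% of all such genes. The signs differed in 16.1% of their promoters and 11.1% of their bodies, beside 17.8% and 11.7% of all such genes.

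Polr2a carried the most promoter reads of the members with either antibody, and Polr2b the most body reads in SCR with either antibody. In the Ser5P library of shRPAP1 the bodies of Polr3b and Polr1a held slightly more read equivalents, 201 and 200 against 195 for Polr2b. In each pair of values below, SCR comes first and shRPAP1 second, and brackets after a log2 ratio hold its counting interval. Polr2a, the catalytic subunit that bears the C-terminal repeats, held a total Pol II promoter signal of 3068 in SCR against 1274 in shRPAP1, or 106 and 44.1 read equivalents. Its log2 ratio was −1.27, with a counting interval of −1.81 to −0.75. With Ser5P its promoter held 4668 and 2826, a ratio of −0.72 (−1.10 to −0.35). Both antibodies showed the lower promoter in shRPAP1, although relative to the median of all genes the Ser5P ratio turned to 0.24. Over its body total Pol II was 72.2 and 46.0, a ratio of −0.64 (−0.99 to −0.31), and Ser5P was 138 and 64.1, a ratio of −1.11 (−1.39 to −0.84). The Polr2a body was thus lower with both antibodies, and it stayed below the median of all genes, by 0.10 with total Pol II and by 0.42 with Ser5P.

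Polr2b, the other large Pol II subunit, held a promoter signal of 846 and 404 with total Pol II in SCR and shRPAP1, and 1427 and 817 with Ser5P. Its log2 ratios were −1.07 (−2.10 to −0.10) and −0.80 (−1.53 to −0.11). Relative to the median of all genes they turned to 0.0049 and 0.16. Over its body, the member with the most reads in SCR, total Pol II was 111 and 55.6 and Ser5P was 90.5 and 48.2. The ratios were −0.99 (−1.23 to −0.76) and −0.91 (−1.17 to −0.66), and the body was one of 3 in which Ser5P did not exceed total Pol II in SCR.

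Of the smaller Pol II subunits, Polr2d, which forms the stalk with Polr2g, had a Ser5P body signal of 71.6 in SCR and 25.2 in shRPAP1. Its log2 ratio of −1.49 (−2.34 to −0.73) was the second lowest of the members there. Polr2g, its partner, held a Ser5P promoter signal of 390 and 462, a ratio of 0.24 (−0.89 to 1.40), but a total Pol II promoter signal of 348 and 116. Polr2i, a small subunit that aids proofreading in yeast, had a total Pol II body of 70.9 and 16.9, on 7.53 and 1.78 read equivalents, with a ratio of −2.05 (−5.64 to 0.36). Polr2c, which pairs with Polr2j in assembly, had a total Pol II body of 38.2 and 41.1, a ratio of 0.11 (−0.72 to 0.93). Its Ser5P body was 79.9 and 45.5, a ratio of −0.81 (−1.50 to −0.15). All 7 Pol II subunits had a lower Ser5P body at 1.5-fold, while 4 of 7 did with total Pol II, beside 56.3% and 46.8% of all genes.

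Pol I subunit genes were lower at the total Pol II promoter in 5 of 5, beside 69.2% of all measured genes. The counting interval of 1 of the 5 lay below 0. Polr1a, the largest Pol I subunit, held 245 in SCR and 58.4 in shRPAP1 there, on 8.48 and 2.00 read equivalents, a log2 ratio of −2.06 (−5.34 to 0.22). With Ser5P its promoter held 482 and 248, a ratio of −0.96 (−2.34 to 0.31). The intervals of both promoter ratios reach above 0. Its body rests on more reads, with total Pol II at 27.1 and 24.3 and Ser5P at 39.6 and 27.2. These gave ratios of −0.15 (−0.45 to 0.15) and −0.54 (−0.81 to −0.28), and relative to the median of all genes the Ser5P ratio turned to 0.15.

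Polr1b, the second large Pol I subunit, held a promoter signal of 224 and 145 in the total Pol II libraries and 499 and 394 in those of Ser5P. Its ratios of −0.62 (−2.60 to 1.19) and −0.34 (−1.48 to 0.77) were the highest among Pol I subunits. Its body signal was close to background, at 20.3 and 15.1 in the total Pol II libraries and 24.7 and 19.9 in those of Ser5P. The Ser5P body ratio of −0.31 (−0.84 to 0.22) was the highest of all measured members.

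Znrd1, the zinc-ribbon subunit of Pol I, had the lowest total Pol II body ratio of the members. Its body signal was 76.2 in SCR and 12.3 in shRPAP1, on 30.9 and 4.96 read equivalents, a ratio of −2.60 (−4.37 to −1.26). With Ser5P the body was 92.3 and 58.1, a ratio of −0.67 (−1.48 to 0.11), so the antibodies differed in size here. Its promoter held 332 and 85.1 in the total Pol II libraries and 982 and 446 in those of Ser5P. Twistnb, a stalk subunit of Pol I, had the highest total Pol II body ratio, 0.25 (−0.37 to 0.88), with 42.3 and 50.4. With Ser5P the Twistnb body was 81.8 and 42.8, a ratio of −0.93 (−1.51 to −0.38). Polr1e, a further Pol I subunit, had promoter signals of 286 and 87.3 in the total Pol II libraries and 702 and 522 in those of Ser5P.

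**Figure D3:**
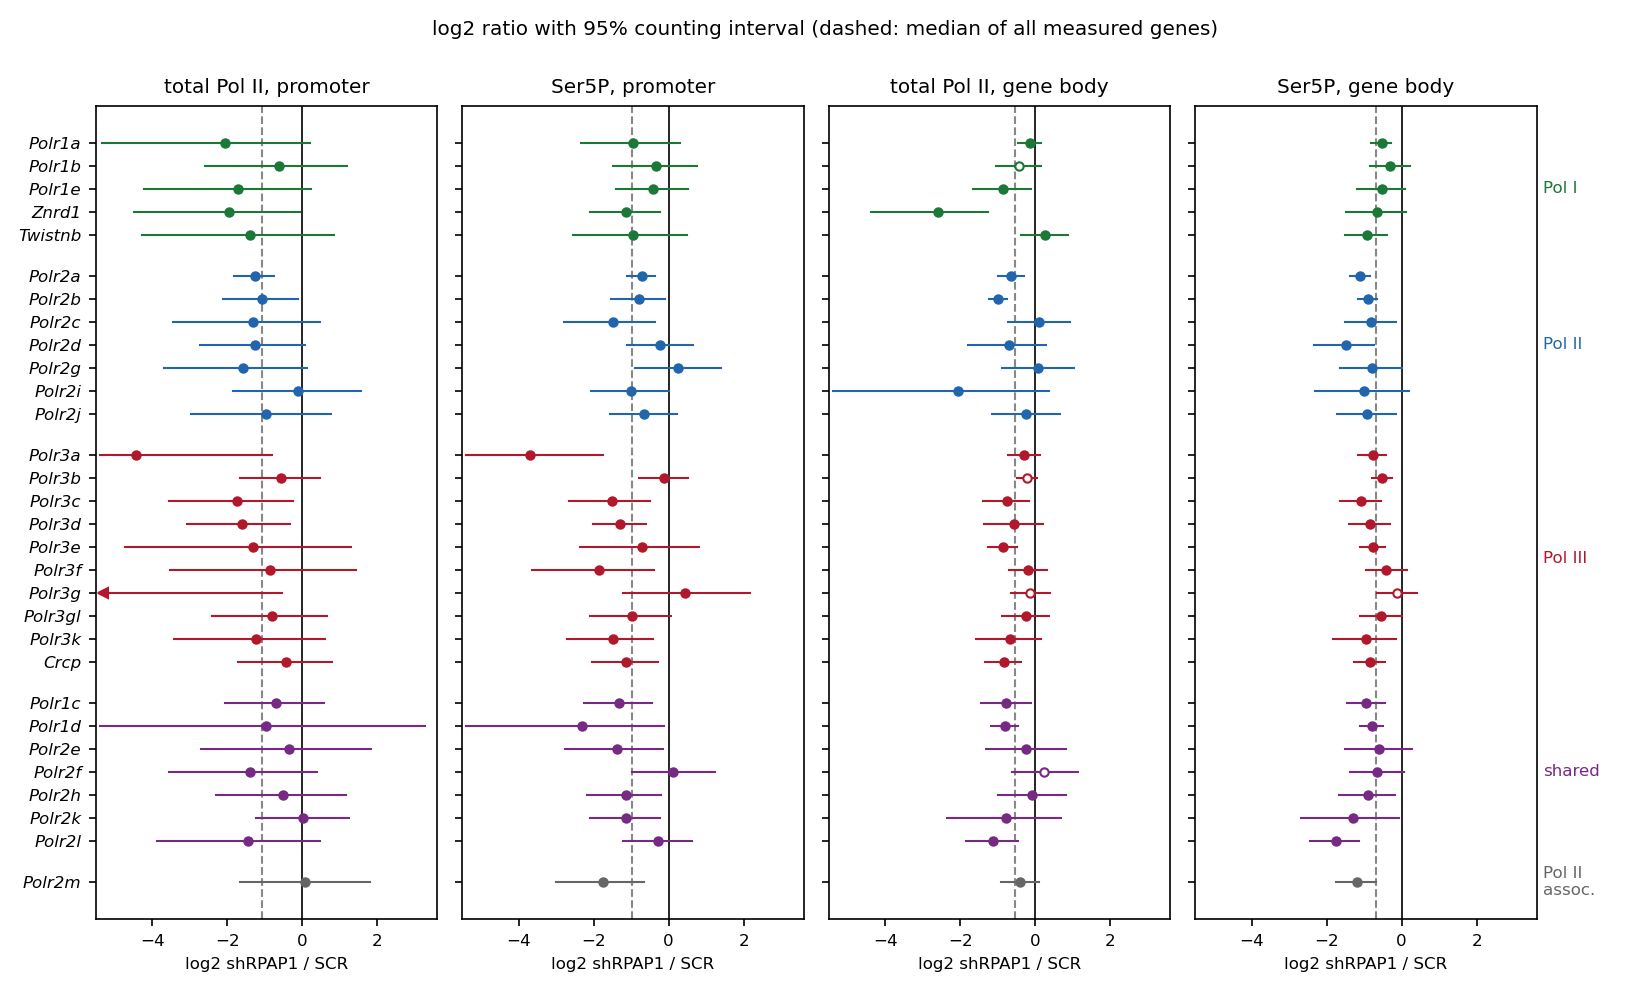
Log2 ratio of shRPAP1 over SCR for 30 of the 31 subunit genes in the 4 measures, with bars for the 95% counting interval cut at the edge of the axis, open circles for genes that were not measured and an arrow for Polr3g, which lies beyond the axis. The dashed line is the median of all measured genes, and most members lie below 0 and on either side of that line, so that 6 of all 31 total Pol II promoters are at least 1.5-fold below it and 5 above it.

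Pol III subunit genes held both the lowest and the highest Ser5P promoter ratio of the members. Polr3a, the largest Pol III subunit, had a total Pol II promoter signal of 279 in SCR against 12.3 in shRPAP1, where less than 1 read equivalent was left. The upper limit of its log2 ratio was −0.79. With Ser5P its promoter held 768 and 58.4, on 26.6 and 2.00 read equivalents, a ratio of −3.70 (−6.85 to −1.74), the lowest of the members. The body of Polr3a showed no such difference, with 27.3 and 22.3 for total Pol II and 43.5 and 25.3 for Ser5P. Its body ratios were −0.29 (−0.71 to 0.12) and −0.78 (−1.15 to −0.42). Polr3a has no other annotated gene start within 500 bases.

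Polr3b, the second large Pol III subunit, held a promoter signal of 606 and 410 in the total Pol II libraries and 1297 and 1184 in those of Ser5P. Its ratios were −0.56 (−1.65 to 0.48) and −0.13 (−0.78 to 0.51). Its body, the longest of the members at 104887 bases, held 23.0 and 19.8 in the total Pol II libraries and 26.5 and 18.3 in those of Ser5P. The Ser5P body ratio was −0.53 (−0.80 to −0.27), and relative to the median of all genes it turned to 0.16. Between these libraries the counting intervals of the Ser5P promoter ratios of Polr3a and Polr3b did not overlap, whereas those of their total Pol II promoter ratios did.

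Polr3g and Polr3gl are alternative forms of one subunit of the Pol III initiation subcomplex, and Polr3g is known as the form of stem cells. Polr3g had a total Pol II promoter signal of 203 in SCR against 0.72 in shRPAP1, or 7 read equivalents against 0. Set against the 3 reads that a count of 0 allows, its promoter was at least 2.33-fold lower. The upper limit of its counting interval, which also covers the error of the SCR reads, was a log2 ratio of −0.53. With Ser5P the same promoter held 185 and 251, a log2 ratio of 0.44 (−1.21 to 2.17), the highest of the members. The antibodies thus gave opposite directions on few reads, and the body of Polr3g was at background with both. Polr3gl was higher than Polr3g in SCR, with promoter signals of 349 and 696 with total Pol II and Ser5P. In shRPAP1 the Polr3gl promoter held 198 and 354.

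Polr3c, another subunit of the initiation subcomplex, was lower in all 4 measures. Its promoter held 485 and 145 in the total Pol II libraries and 917 and 320 in those of Ser5P, ratios of −1.74 (−3.54 to −0.25) and −1.52 (−2.65 to −0.49). Its body held 37.9 and 22.3, and 54.9 and 25.8, ratios of −0.76 (−1.40 to −0.16) and −1.08 (−1.65 to −0.55). Polr3f, the third subunit of that subcomplex, had the second highest Ser5P body ratio of the members, −0.40 (−0.96 to 0.14), with 47.0 and 35.4. Its Ser5P promoter was 529 and 145, a ratio of −1.86 (−3.65 to −0.39). Polr3d had the highest Ser5P promoter of the Pol III subunits, 1799 in SCR and 731 in shRPAP1, a ratio of −1.30 (−2.03 to −0.61). The start of the microRNA gene Mir320 lies 39 bases upstream of Polr3d. Polr3e, the partner of Polr3d, held a total Pol II body signal of 50.9 and 27.8 and a Ser5P body signal of 69.7 and 40.8. Crcp, a stalk subunit of Pol III, had a Ser5P body signal of 42.0 and 23.2, a ratio of −0.84 (−1.28 to −0.44). Polr3k, the subunit for transcript cleavage and termination, had a Ser5P promoter signal of 817 and 289.

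Polr1c and Polr1d form a pair that is shared by Pol I and Pol III. Polr1c held a Ser5P body signal of 247.5 in SCR and 128 in shRPAP1, a ratio of −0.95 (−1.46 to −0.45), and a total Pol II body signal of 136 and 79.5, a ratio of −0.78 (−1.45 to −0.12). Polr1d had the second lowest Ser5P promoter ratio, −2.32 (−5.57 to −0.12), from 294 and 58.4. Its total Pol II promoter rested on 2.00 and 1.00 read equivalents, so no fold is given, although it is among the 23 lower promoters above. Its body signal was 49.1 and 28.0 in the total Pol II libraries and 68.5 and 39.5 in those of Ser5P.

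Polr2e, Polr2f, Polr2h, Polr2k and Polr2l encode the small subunits found in all 3 polymerases. Polr2l had the highest body signal and the lowest Ser5P body ratio, with 298 in SCR and 87.7 in shRPAP1 and a ratio of −1.76 (−2.44 to −1.14). With total Pol II its body was 192 and 88.1, a ratio of −1.12 (−1.83 to −0.46). Polr2k had a total Pol II promoter of 363 and 367, a ratio of 0.01 (−1.23 to 1.26), the second highest, but a Ser5P promoter of 997 and 457, a ratio of −1.13 (−2.09 to −0.23). Polr2f had a Ser5P promoter of 434 and 470, a ratio of 0.11 (−0.99 to 1.23). All 7 shared subunits had a Ser5P body at least 1.5-fold lower, beside 56.3% of all genes. Of the 7 counting intervals 5 lay below 0, and Polr2f and Polr2k passed the filter through SCR alone. Polr2m, which encodes an inhibitor that binds Pol II, had the highest total Pol II promoter ratio, 0.07 (−1.66 to 1.81), with 200 and 209. Its Ser5P promoter was 885 and 263, a ratio of −1.75 (−3.01 to −0.65).

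Between the polymerases the ratios overlapped. At total Pol II promoters 5 of 5 Pol I, 6 of 7 Pol II, 8 of 11 Pol III and 4 of 7 shared subunits were lower, beside 69.2% of all genes, with median log2 ratios of −1.71, −1.25, −1.22 and −0.70. At Ser5P promoters the counts were 3, 5, 9 and 5, beside 68.5% of all genes, and the medians −0.95, −0.72, −1.30 and −1.14. Over total Pol II bodies 2 of 4, 4 of 7, 4 of 9 and 4 of 6 measured members were lower, beside 46.8% of all genes, with medians of −0.50, −0.64, −0.56 and −0.77. Over Ser5P bodies 2 of 5, 7 of 7, 7 of 10 and 7 of 7 were lower, beside 56.3% of all genes, with medians of −0.54, −0.91, −0.81 and −0.91. The order of the polymerases therefore changed from measure to measure. Every lower Pol I and Pol III body with total Pol II passed the filter through the SCR library alone. So did the bodies of Polr2d, Polr2i, Polr1d and Polr2k. The 4 lower bodies above background in both libraries were those of Polr2a, Polr2b, Polr1c and Polr2l. Polr2d, Polr2f, Polr2k, Polr3a, Polr3c, Polr3k and Crcp were among the lower Ser5P bodies that passed through SCR alone. The median of the Pol II subunits minus that of the Pol I subunits was 0.46 and 0.22 at total Pol II and Ser5P promoters and −0.15 and −0.38 over bodies. Minus that of the Pol III subunits it was −0.02 and 0.57 at promoters and −0.08 and −0.10 over bodies. With the mean receptor signal subtracted, the difference from Pol I over total Pol II bodies turned to 0.79, and those from Pol III turned to 0.08 at total Pol II promoters and to 0.12 over the bodies of each antibody. Without the members that share a start, the differences from Pol I turned to 0.22 over total Pol II bodies and −0.0031 at Ser5P promoters, and that from Pol III to 0.44 over total Pol II bodies. With the stricter filter, which left 5 Pol II and 1 Pol I subunit at total Pol II promoters, their difference turned to −0.44. Of the 8 class differences, 6 thus changed sign under at least 1 alternative.

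Summing read equivalents gives long and well-covered genes more weight. The sums also hold bodies that did not count as measured, Polr1b, Polr3b and Polr3g with total Pol II and Polr3g with Ser5P. With total Pol II in SCR, Polr3b held 253 and Polr3g 69.0 of the 993 read equivalents of Pol III, and Polr1b 57.2 of the 372 of Pol I. With Ser5P, Polr3g held 65.0 in SCR and 59.3 in shRPAP1. The summed Ser5P body reads were 533 in SCR and 359 in shRPAP1 for Pol I subunits, 927 and 462 for Pol II subunits and 1305 and 803 for Pol III subunits. The log2 ratios of these sums were −0.57 (−0.77 to −0.37), −1.01 (−1.17 to −0.84) and −0.70 (−0.83 to −0.57), and −0.94 (−1.15 to −0.74) for the shared subunits. The interval of the Pol II subunits lay below those of the Pol I and Pol III subunits, but without Polr2a the Pol II sum had a ratio of −0.94 (−1.15 to −0.74), which overlaps both. With total Pol II bodies the sums gave −0.31 (−0.53 to −0.09) for Pol I, −0.78 (−0.95 to −0.60) for Pol II and −0.44 (−0.58 to −0.30) for Pol III. Here the Pol II interval lay below those of Pol I and Pol III, also without Polr2a at −0.82 (−1.03 to −0.62). Polr2b alone held 448 of the 734 read equivalents of the Pol II sum in SCR and 225 of 428 in shRPAP1. No sum without Polr2b was taken, and none over measured bodies alone. This order is therefore no result about the Pol II subunits as a class, and whether it holds without Polr2b was not tested. At promoters the intervals of these sums overlapped between polymerases with total Pol II, at −1.52 (−2.46 to −0.66), −1.17 (−1.56 to −0.80) and −1.17 (−1.65 to −0.71). With Ser5P promoters they overlapped as well, at −0.75 (−1.23 to −0.29), −0.69 (−0.95 to −0.44) and −1.10 (−1.40 to −0.81). The body level moved with this order, since the median SCR body signal with Ser5P was 39.6 for Pol I, 79.9 for Pol II and 47.0 for Pol III subunits while receptor background was higher in shRPAP1 and that of the 30 other silent genes was lower. The part of this in the result was not tested. With the mean receptor signal subtracted the Ser5P body medians were −0.94, −1.13 and −1.25, so that the Pol III subunits and not the Pol II subunits were lowest. Across the 31 members the SCR level with the other antibody and the Ser5P body ratio had a Spearman correlation of −0.54, between genes that share the same libraries. It was −0.34 over total Pol II bodies, 0.25 at total Pol II promoters and 0.26 at Ser5P promoters.

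The promoter signal of these genes stood well above that of their bodies. In SCR the promoter signal of total Pol II was a median of 7.64 times the body signal over the members and 3.54 times over all genes measured in both regions. In shRPAP1 these medians were 3.68 and 2.51, and the ratio was lower in 25 of 31 members beside 68.5% of all genes. With Ser5P the members' median was 10.6 in SCR and 9.12 in shRPAP1, beside 6.15 and 5.32 over all genes. Here the ratio was lower in 18 of 31 members, beside 61.5% of all genes, and in 1 of 7 Pol II subunits. Polr2a had the highest total Pol II ratio in SCR, 42.5, and 27.7 in shRPAP1, while its Ser5P ratio was 33.8 and 44.1. Polr3b had the highest Ser5P ratio in both conditions, 49.0 and 64.8. That of Polr3a was 17.6 in SCR and 2.31 in shRPAP1.

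**Figure D4:**
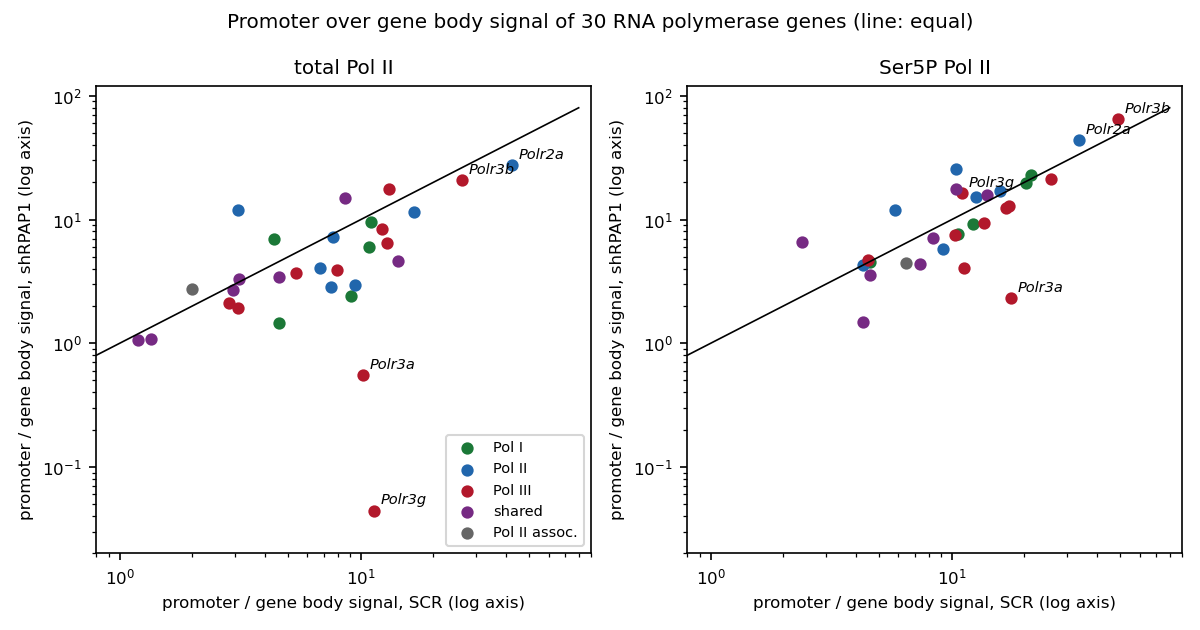
Promoter signal over gene body signal (a ratio) in SCR on the x axis and in shRPAP1 on the y axis, both log axes, for total Pol II and for Ser5P, with 1 point for each of 30 subunit genes and a line where both are equal. The total Pol II ratio was lower in shRPAP1 in 25 of 31 members, and with Ser5P it was lower in 18 of 31, counting the member not drawn.

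Ser5P signal exceeded total Pol II signal at 30 of 31 promoters in SCR, beside 11642 of the 13141 genes measured with both antibodies. The median of Ser5P over total Pol II was 2.56, beside 2.28 over those genes. In shRPAP1 the members' median was 2.55 and all 31 promoters were above 1, beside 2.40 and 11277 of the 13141 genes. Over bodies the median was 1.55 in SCR and 1.14 in shRPAP1, beside 1.23 and 1.09 over all genes. Among the Pol II subunits the body median went from 1.92 to 1.11, and among the Pol I subunits it was 1.24 and 1.32. The antibodies differ in their capture of chromatin, so the size of this ratio has no absolute meaning.

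Most of the general factors of each polymerase bring the enzyme to its genes. Their promoters were lower in 6 of 8 Pol I, 11 of 15 Pol II and 9 of 16 Pol III factors with total Pol II, beside 69.2% of all genes, and 1 Pol II factor was higher. With Ser5P 6, 13 and 14 of them were lower, beside 68.5%. The body counts stand beside 46.8% of all genes with total Pol II and 56.3% with Ser5P. The list of Pol I factors also holds Cd3eap, which encodes a Pol I subunit but whose name lies outside the rule for members. Among 8 Pol I factors, 2 of 5 measured bodies were lower with total Pol II (median −0.40) and 7 of 8 with Ser5P (median −0.92). Ubtf, which binds ribosomal DNA, had the lowest total Pol II body ratio of these, −1.16, from 89.3 and 39.8, and Ttf1, the Pol I terminator protein, the highest, 0.03. With Ser5P bodies Taf1d and Taf1b, both of the Pol I selectivity factor, were the extremes, at −1.39 and −0.44. Among 15 general factors of Pol II, 7 of 15 bodies were lower with total Pol II (median −0.49) and 9 of 15 with Ser5P (median −0.71). Ercc2 and Gtf2h4, both of the repair and initiation factor TFIIH, were the extremes with total Pol II at −0.97 and 0.52, and Gtf2h1 and Gtf2h5 of the same factor with Ser5P at −1.17 and −0.17. Among 16 Pol III factors, 9 of 13 were lower with total Pol II (median −0.69) and 10 of 16 with Ser5P (median −0.78). Snapc2, of the complex that binds small nuclear RNA promoters, was lowest with both antibodies. Its body signal was 122 and 35.2 for total Pol II, a log2 ratio of −1.78, and 182 and 50.8 for Ser5P, a ratio of −1.84. Gtf3c3, of the factor that binds transfer RNA genes, was highest with total Pol II at 0.12, and Snapc1 with Ser5P at −0.17.

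Many of these genes share their start with a neighbour, and ChIP reads carry no strand. Of the 31 members 17 have another annotated start within 500 bases, and for 12 that neighbour is protein-coding. Examples are Polr2b with Noa1, whose start lies 71 bases upstream, Polr1c with Yipf3 at 35, Polr3c with Rnf115 at 99 and Polr1a with Ptcd3 at 280. Promoter reads of these pairs cannot be assigned to one gene. The median total Pol II promoter ratio was −1.25 in the 17 members with such a neighbour and −1.10 in the 14 without, and with Ser5P it was −0.96 and −1.13. Over bodies the sets were further apart with total Pol II, at −0.78 with 9 of 13 measured members lower and −0.35 with 5 of 14. This is beside 46.8% of all genes, and 15 of these bodies passed the filter through SCR alone. With Ser5P bodies the medians were −0.82 with 12 of 16 and −0.88 with 12 of 14, beside 56.3% of all genes. Polr2a, Polr3a, Polr3gl, Crcp, Polr2j, Polr2g and Polr3k are among those without such a neighbour. The genes range from 1314 bases for Polr2i to 104887 for Polr3b, and 9 overlap another gene.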

How the data were processed

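Pol II ChIP-seq was analysed in 4 libraries of mouse embryonic fibroblasts. The series has 17 samples. The 12 RNA-seq samples and the input chromatin were not analysed here. The deposited values are, per the file headers, a promoter and a gene body signal, read here as coverage. MACS2 2.0.10.20130712, bedtools 2.23.0, SAMtools 0.1.16 and FastQC stand in the submitters' processing notes, with build GRCm38 (mm10). Information on the aligner, filters, promoter window, input correction and depth scaling was not given in the sources used here. Promoter values were whole multiples of 0.7212 within 0.0073, from which 1 read of 40 bases was taken as worth 28.85. Gene body read equivalents rest on RefSeq lengths, with a body taken to begin 300 bases into the gene, which matched 69.9% of 1236 receptor floors within 0.006. All read equivalents are approximate. Values of 1 member are not reported here by name, and it is left out of the figures, but it enters the counts and medians.

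After 58 exact repeats were dropped from 36230 rows, log2((shRPAP1 + c)/(SCR + c)) was taken with c of 0.72 for promoters and 0.33 for bodies, the 5th percentile of all values. Counts used a fold of 1.5, and intervals of ratios of reads are exact 95% Clopper-Pearson intervals. Those of medians are 95% order-statistic intervals that treat the genes as independent. A count of 0 was taken to allow 3. The polymerase classes, factor lists, markers and members were chosen with earlier results of these data known. Named in full were the 2 largest subunits of each polymerase, the 2 lowest and 2 highest ratios in each measure, the 2 highest and 2 lowest Ser5P levels per region, any member without coverage in a library, and the extremes of each factor list over bodies. The remaining members were named by role after their values were seen. Python 3.11.15, pandas 2.3.3, NumPy 2.4.6 and SciPy 1.17.1 were used, and the steps were tested on simulated data. Alternatives changed the scaling, background, pseudocount and filter. A scaling on 30 silent genes that are not receptors and leaving out members that share a start were chosen after the data were seen.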

Additional observations from a re-analysis of the deposited data

How the results depend on the processing

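Each of the 20 summary results was recomputed under 10 settings, which gave 197 values, of which 163 moved by less than the interval of the reported value or by under 1.5 times for a count, and 34 moved by more. No median over all members changed sign. All 77 values of the 8 differences between polymerases are among the 163, although 8 of them had the opposite sign. The intervals of these differences span nearly the whole range of a few genes, so hardly any value could leave them. A common scaling also leaves a difference of medians almost unchanged. These 77 values are therefore no measure of stability. Values are given in the order total Pol II promoter, total Pol II body, Ser5P promoter, Ser5P body. With the median of all measured genes set to 0, the members' medians were −0.15, −0.099, −0.028 and −0.17, the counts at least 1.5-fold lower were 6, 2, 5 and 3, and 5 total Pol II promoters, 3 total Pol II bodies and 7 Ser5P promoters were higher. That setting also turned the sign of the ratio of Polr2b at the total Pol II promoter (0.0049), of Polr2a (0.24) and Polr2b (0.16) at the Ser5P promoter and of Polr1a (0.15) and Polr3b (0.16) over the Ser5P body. With receptor genes set equal the medians were −1.99, −1.49, −1.57 and −1.66, and 27 total Pol II bodies were lower. With the mean receptor signal subtracted the body medians were −0.97 and −1.11. With 30 silent genes that are not receptors set equal the medians were −0.49, −1.19, −1.79 and −0.49, with 11 total Pol II promoters, 24 total Pol II bodies and 10 Ser5P bodies lower and 3 total Pol II promoters higher. The stricter filter left 9 lower total Pol II promoters, 2 lower total Pol II bodies and 5 lower Ser5P bodies, the last with a median of −1.002, and gave no class difference for 3 results since too few members passed. Without the 17 members that share a start, 9, 5, 12 and 12 were lower, out of 14, and the total Pol II body median was −0.35. The pseudocounts, the absence of a filter and a filter on the other antibody moved none of the 20. Apart from the changes that follow from fewer members, the cause was not tested. Of 1240 values of single genes, 1103 stayed close, 132 moved and 5 reversed. Depth limits the promoters most, where total Pol II members held a median of 9.65 read equivalents in SCR and 4 in shRPAP1. No paired analysis was possible because each antibody has 1 library per condition. Leaving out a replicate was not possible for the same reason.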
